A study of Caenorhabditis elegans with 2 samples.

Results

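Chromatin immunoprecipitation mapped SPTF-1, a member of the Sp family of zinc-finger factors, in Caenorhabditis elegans embryos, and 116 of the 2419 nuclear summits in the authors' thresholded peak list lay at, or up to 500 bp past, an annotated 5' end of a protein-coding gene. These downstream summits were chosen by position only. The summit, the highest point of a peak, had to lie more than 200 bp from any tRNA, snoRNA, snRNA or miRNA gene. It had to fall between 1000 bp upstream and 500 bp downstream of annotated transcript 5' ends of genes on 1 strand only, and at or downstream of the nearest such end. The 116 summits belonged to 112 genes, 4 of which (egl-30, F54F2.6, C25D7.9 and Y39A1C.1) had 2 summits each. The remaining nuclear summits were 760 upstream summits, 344 divergent summits, 858 outside all such windows and 341 near small RNA genes. At upstream summits the nearest 5' end lay downstream under the same 1-strand rule. At divergent summits, 5' ends of genes on both strands lay within the same limits.

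The animals were of strain OP707, which carries unc-119(tm4063) III and the integrated transgene wgIs707, coding for SPTF-1 with GFP and FLAG at its C terminus. There was 1 group of 2 biological replicates, both made from whole mixed-stage embryos of pooled sexes, 2.5 hours after egg bleaching, so no condition was compared with another and an untagged strain was not analysed here. The sample description gives an anti-GFP precipitation and the antibody field gives sptf-1. Whole embryos hold every embryonic cell type, so a weak peak in many cells and a strong peak in few cells cannot be told apart. Each peak carries the authors' signal value, a score on which peaks were ranked within a list, and the scale of these values differs between lists. Read depth was not given in the sources used here. All intervals are exact 95% intervals (Clopper-Pearson for shares, Poisson for densities) and cover counting error only. Peaks of 1 pair of libraries are not independent replicates, so the comparisons below carry no test.

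Sp proteins carry zinc fingers that read GC-rich DNA, of which the GC box GGGCGG is the textbook element, and related KLF proteins read CACCC boxes. In most animals such elements stand a short way upstream of the start of transcription, but promoters can also reach past the start, and in worms the first intron often holds regulatory DNA. Many worm transcripts have their first stretch replaced by a spliced leader, so an annotated 5' end can be a splice site rather than the start of transcription, and the annotation used here does not tell which. Many worm genes also have several alternative 5' ends.

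A selection of summits is printed to show the words and positions that the results below refer to. It is neither a sample of the 116 nor the strongest of them, and the shares of windows with each word are given further on. The first set gives each summit with 50 bases on either side, for 10 genes, read 5′ to 3′ on the strand of the gene (build ce11, equal to WBcel235). Capitals mark the GC box GGGCGG, the CACCC box, and the words CTCTCT (a GA repeat), CGCGCA, the CA repeat ACACAC and the G run CCCCCC, each on either strand, and at tba-7 also the letters TGGCNNAGT and GTTCNANNC, which are cores of the A box and B box of tRNA genes.

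tba-7 (chrIII:11371420-11371520, minus strand): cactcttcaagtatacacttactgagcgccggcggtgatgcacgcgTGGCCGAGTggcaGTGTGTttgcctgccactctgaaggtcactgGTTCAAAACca
tsp-21 (chrX:9932512-9932612, plus strand): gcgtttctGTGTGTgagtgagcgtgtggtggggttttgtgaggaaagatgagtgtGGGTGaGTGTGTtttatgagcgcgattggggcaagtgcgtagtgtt
K09F5.4 (chrX:7710311-7710411, minus strand): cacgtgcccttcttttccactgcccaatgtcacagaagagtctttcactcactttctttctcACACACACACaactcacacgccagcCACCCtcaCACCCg
F54F2.6, weaker summit (chrIII:8800462-8800562, minus strand): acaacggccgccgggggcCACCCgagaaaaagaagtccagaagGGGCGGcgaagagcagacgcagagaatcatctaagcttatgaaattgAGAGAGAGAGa
flh-1 (chrIV:9263954-9264054, minus strand): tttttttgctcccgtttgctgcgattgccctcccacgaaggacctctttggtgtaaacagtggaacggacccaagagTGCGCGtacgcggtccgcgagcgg
F12F6.1 (chrIV:11584158-11584258, plus strand): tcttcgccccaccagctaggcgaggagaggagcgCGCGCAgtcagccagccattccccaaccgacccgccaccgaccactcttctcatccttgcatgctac
ZK470.2 (chrX:4145677-4145777, plus strand): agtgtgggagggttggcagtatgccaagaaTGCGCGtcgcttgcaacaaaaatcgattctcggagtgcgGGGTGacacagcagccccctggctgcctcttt
srw-85 (chrV:19430728-19430828, minus strand): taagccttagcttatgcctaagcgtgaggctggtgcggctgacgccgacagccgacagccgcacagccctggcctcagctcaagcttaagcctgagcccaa
num-1 (chrV:20832746-20832846, plus strand): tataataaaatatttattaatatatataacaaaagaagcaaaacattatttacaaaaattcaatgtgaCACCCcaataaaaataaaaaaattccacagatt
ZK112.4 (chrIII:7729687-7729787, minus strand): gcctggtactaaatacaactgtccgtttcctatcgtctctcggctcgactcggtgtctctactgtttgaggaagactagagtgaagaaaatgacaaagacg

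The second set gives 30 bases around the summit of 4 genes whose summit lay in a 5' UTR exon, where the summit is the 16th base and capitals have the same meaning.

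sto-4 (chrX:11644157-11644186, plus strand): ctgtctgtttttctcagttcatcttacgtc
Y39B6A.43 (chrV:18967806-18967835, minus strand): tggacgaaacacgcttccaaatcatcgatt
let-4 (chrX:14577923-14577952, plus strand): gaGGGGGGGGGGGGGGGGattggaaactgc
Y43F8C.3 (chrV:19622543-19622572, minus strand): cggcatctctgatgtctctccgtctccggc

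The windows of the first set ranged from 17.8% GC at num-1, with 1 CACCC box in AT-rich DNA, to 64.4% GC at F12F6.1. The srw-85 and ZK112.4 windows held none of the marked words. The let-4 window held an unbroken run of G directly at the annotated 5' end. The central 37 bases of each of the 116 summits occurred once in the nuclear genome, so none of these summits sat on an exact repeat of that length.

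The 116 summits lay 0 to 491 bp from the nearest 5' end, with a median of 155.5 bp and quartiles of 32.75 and 330 bp. They fell into a group at the 5' end itself and a thin spread across the rest of the window: 51 lay within 100 bp, 23 of them within 20 bp, 16 lay at more than 100 and up to 200 bp, and 49 lay farther downstream. Counted over the bases that the rule makes eligible in each 100 bp, there were 23.3 summits per Mb (17.4 to 30.7) in the first 100 bp, and 6.35 to 9.68 per Mb in the 4 steps beyond. On the upstream side of the same 5' ends the density was highest at 100 to 200 bp upstream, at 80.8 summits per Mb (68.9 to 94.2). Over the whole territory, downstream bases held 11.0 summits per Mb (9.12 to 13.2), against 41.7 per Mb (38.8 to 44.8) upstream, 116 per Mb (104 to 128) in bases of the divergent class and 12.6 per Mb (11.8 to 13.5) outside the windows. The downstream interval thus overlapped that of the bases outside promoter windows, and did not overlap those of the upstream or divergent bases.

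**Figure D1:**
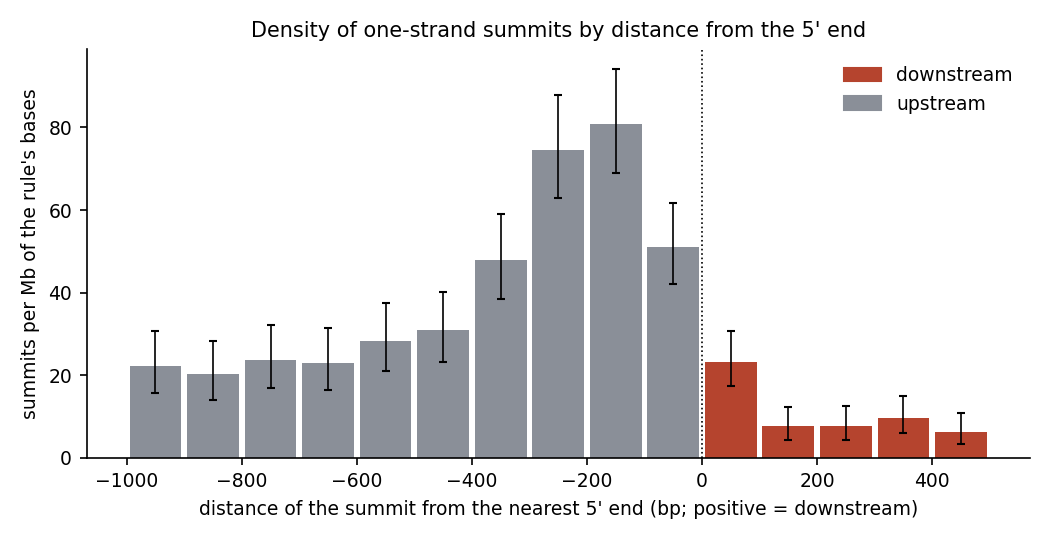
Number of 1-strand summits per Mb of eligible bases (vertical axis) in steps of 100 bp from the nearest annotated 5' end (horizontal axis); bars are densities and lines exact 95% Poisson intervals, with downstream summits in red and upstream summits in grey. The first downstream step stands at 23.3 per Mb and the later ones at 6.35 to 9.68 per Mb, whereas the highest upstream step reaches 80.8 per Mb.

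At the inner edge of the rule stood sto-4, ints-4 and lin-28, with summits 0, 1 and 2 bp downstream of a 5' end. Just outside it stood cox-5B, a subunit of cytochrome c oxidase, with a summit 1 bp upstream and a signal value of 905, and ccr-4 and hst-2, each 2 bp upstream, with signal values of 222 and 303. At the outer edge dab-1, F26F2.7 and col-47 lay inside at 491, 482 and 479 bp, and inx-1, Y95D11A.1 and ccch-1 lay outside at 504, 511 and 514 bp. The limit at 0 bp therefore divides summits that are 1 or 2 bases apart.

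The signal values of the downstream summits were low within the list. Their median was 271 (quartiles 239.6 and 320.2), against 301 for upstream, 344 for divergent and 271 for summits outside the windows. In the upper 25% of the thresholded list stood 9 of the 116 downstream summits (7.76%, 3.61 to 14.2%), against 22.4% of the upstream and 35.5% of the divergent summits. The highest downstream value was 1047, while the highest upstream value was 3328.

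**Figure D2:**
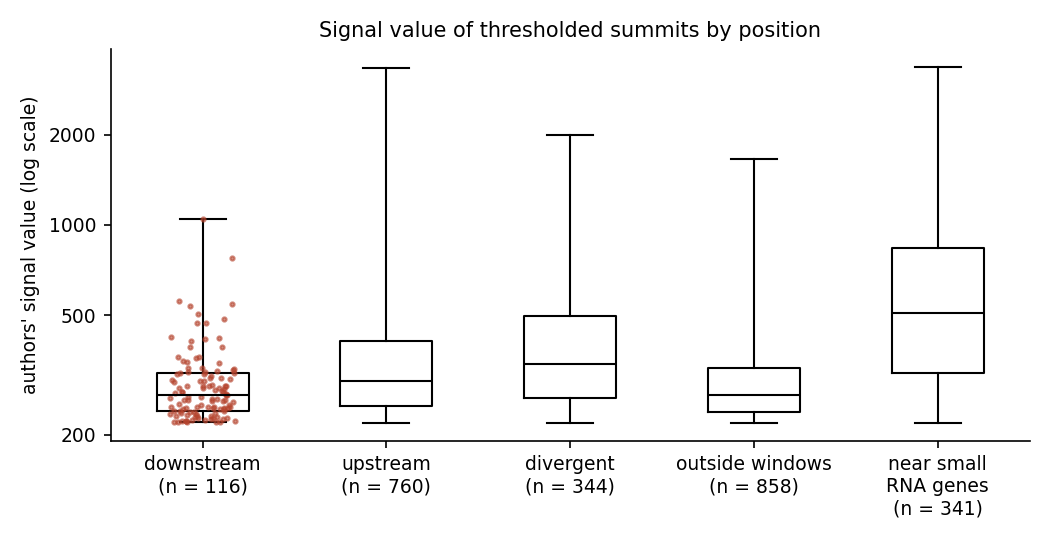
Authors' signal value of thresholded summits (vertical log axis) by position (horizontal axis); boxes show the quartiles with the median line, whiskers reach the lowest and highest value, and red points are the 116 downstream summits. The downstream median of 271 lies below the upstream median of 301 and the divergent median of 344 and is close to that of summits outside the windows, also 271.

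The strongest downstream summit lay in tba-7, which codes for an α-tubulin, a building block of microtubules. It stood 318 bp into the gene, in a first intron of 238 bp, at chrIII:11371470, with a signal value of 616 in replicate 1 and 422 in replicate 2, at ranks 95 and 117. Its own summit in replicate 1 was at the same base and in replicate 2 lay 4 bp away. Within 100 bases of it the A box and B box letters given above stood on 1 strand, that of tba-7, which was also seen at col-111 and at no other downstream summit. This held for 2 of 116 downstream summits (1.72%), 0.154% of sampled bases of the same territory and 8.21% of the summits near small RNA genes. The letters were chosen after the sequences had been seen, so these shares are a description and support nothing. Singly, the A box letters stood at 5.17% of downstream summits and 1.84% of sampled bases, and the B box letters at 5.17% and 7.53%. The nearest gene annotated as a tRNA, snoRNA, snRNA or miRNA was a tRNA gene 17770 bp away, and 2 genes of the broader class ncRNA, T28D6.15 and T28D6.13, overlapped the summit. Whether this sequence is transcribed was not tested.

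The summit ranked next was at sto-4, a gene of the stomatin family of membrane proteins, exactly at a 5' end. The sto-4 signal value was 462 in replicate 1 and 352 in replicate 2, at ranks 175 and 182. This gene had a stronger thresholded summit, of 1059, 212 bp upstream of the same 5' end. Y39B6A.43 followed, with its summit 3 bp downstream of a 5' end and signal values of 320.2 and 244 in replicates 1 and 2. At K09F5.4 the summit lay 382 bp downstream and past the end of that short gene, with 311 and 225 in replicates 1 and 2. tsp-21, a tetraspanin of the cell membrane, had its summit 191 bp downstream in a first intron of 846 bp, with 311 and 222 in replicates 1 and 2. All 5 summits were among the 500 strongest regions of both replicates.

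Further down, egl-30, which codes for a Gq α subunit of heterotrimeric G proteins, had 2 downstream summits in its 5' UTR exons. The first, at 88 bp, had signal values of 288 and 222 in replicates 1 and 2, and the second, at 381 bp, had 213 and 71.8. F54F2.6 also had a pair, 227 bp apart. Its summit at 416 bp, past the end of this gene and in an intron of another gene's transcript, had 296 and 158 in replicates 1 and 2, and its coding exon summit at 189 bp had 205 and 61.8. In both genes the weaker summit was at ranks 781 and 834 in replicate 1, and at ranks 6056 and 8962 in replicate 2. The remaining genes with 2 downstream summits were C25D7.9, with summits 205 bp apart, and Y39A1C.1, with summits 140 and 256 bp from different 5' ends.

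Among the other strong downstream summits were those of several regulators. xbp-1, the transcription factor of the unfolded protein response, had a summit 155 bp downstream and 7 bp before its start codon, with 145 and 156 in replicates 1 and 2 at ranks 1810 and 964. flh-1, a FLYWCH zinc-finger factor known as a repressor of microRNA genes in the embryo, had an intronic summit at 259 bp with 215 and 173 in replicates 1 and 2. num-1, the worm Numb adaptor protein, had 203 and 157. mab-20, a semaphorin guidance ligand, had 196 and 142, and let-4, a leucine-rich repeat protein of the outer epithelial matrix, had 171 and 152 in replicates 1 and 2. At these 5 genes the replicates' own summits lay within 75 bp of the pooled one in replicate 1 and within 3 bp in replicate 2. At num-1 and let-4 the summit of replicate 1 was upstream of a 5' end under the same rule.

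Reproducibility of the downstream summits was moderate. Of the 116 peaks, 73 (62.9%, 53.5 to 71.7%) overlapped a region among the 2430 strongest of both replicates, the length of the thresholded list. Any overlap counted, so that at paired summits the region can be the neighbour's. The share was 69.6% (66.2 to 72.9%) of upstream, 79.1% (74.4 to 83.2%) of divergent and 59.0% (55.6 to 62.3%) of summits outside the windows. A further 26 reached that depth in replicate 1 only, 15 in replicate 2 only and 2 (R05D7.3 and col-111) in neither. By part of the gene, 28 of 41 intronic, 32 of 49 5' UTR exon and 9 of 20 coding exon summits were in both. Across 115 downstream peaks with a region in both replicates, log2 signal values had a Pearson correlation of 0.47 and signal values a Spearman correlation of 0.32, given as a description because peaks share libraries and were chosen on the pooled signal.

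Each replicate placed its own summit close to the pooled one. It lay within 50 bp in 102 of 115 peaks in replicate 1 and in 90 of 116 in replicate 2, with median shifts of 7 and 9.5 bp. It remained downstream under the same rule in 102 peaks in each replicate, and in both at once in 91. Of the 65 summits more than 100 bp downstream, 60 were downstream in both replicates, against 31 of the 51 within that distance. With shifts mostly this small, it is mainly summits near the 5' end that can cross the limit at 0 bp. The contrast therefore follows largely from the rule and says little about the peaks. ZK829.9, at 103 bp, had no region in replicate 1, so its ranks could not be compared. The 5 peaks with the most unequal ranks were gpb-1 (872 in replicate 1, 20601 in replicate 2), C25D7.9 at 406 bp (18418 and 1507), F54F2.6 at 189 bp (834 and 8962), egl-30 at 381 bp (781 and 6056) and grl-25 (5763 and 1116). Each rank is that of the overlapping region with the nearest summit. At gpb-1, C25D7.9 at 406 bp and F54F2.6 at 189 bp, the peak also overlapped a stronger region in the replicate with the larger rank number. These peaks were therefore counted as overlapping the strongest regions of both replicates, whereas egl-30 at 381 bp and grl-25 were not. gpb-1 codes for a G protein β subunit, and grl-25 for a ground-like protein of the hedgehog-related family.

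**Figure D3:**
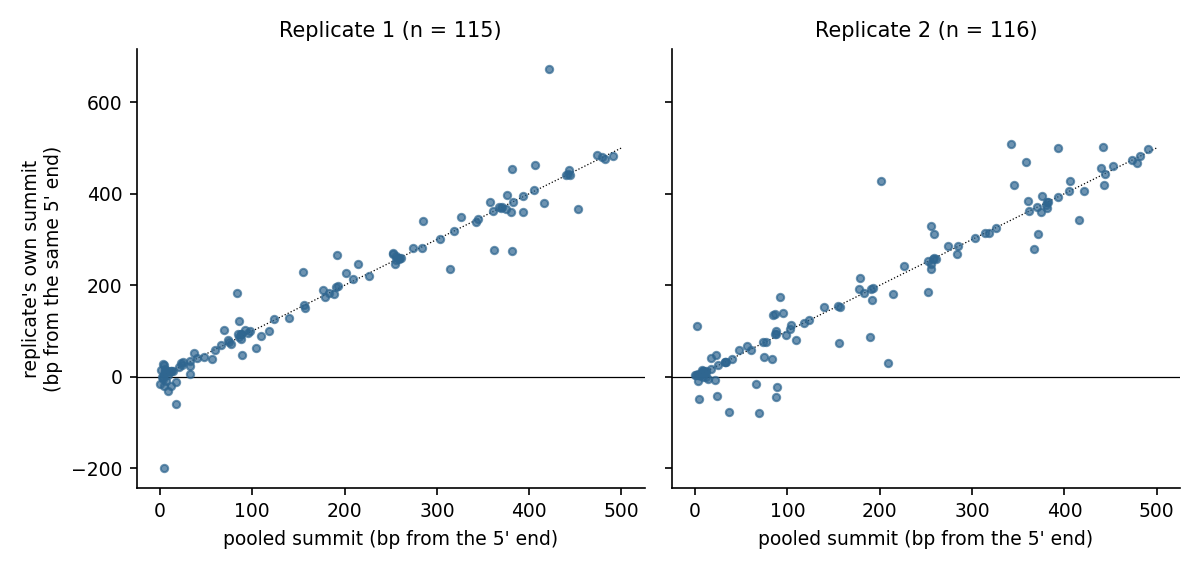
Position of each replicate's own summit (vertical axis, bp from the same 5' end) against the pooled summit of the 116 downstream peaks (horizontal axis, bp), one point per peak; the dotted line marks equal positions and the solid line the 5' end. Most points follow the dotted line, with median shifts of 7 bp in replicate 1 and 9.5 bp in replicate 2, and the points under the solid line come from peaks near the 5' end.

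By part of the gene, 49 of the 116 summits (42.2%, 33.1 to 51.8%) lay in 5' UTR exons, 41 (35.3%, 26.7 to 44.8%) in introns, 20 (17.2%, 10.9 to 25.4%) in coding exons, 5 past the end of short transcripts and 1 in a 3' UTR exon. The part was read from any protein-coding transcript at the summit, so it can be that of a neighbouring gene. The bases that the rule makes eligible had another make-up, with 8.57% in 5' UTR exons, 40.2% in introns and 48.8% in coding exons. Per Mb of such bases there were 54.4 summits (40.2 to 71.9) in 5' UTR exons, 9.69 (6.96 to 13.1) in introns and 3.90 (2.38 to 6.02) in coding exons. The intervals of the 3 parts did not overlap. Position in the gene and distance were linked, since 5' UTR exon summits had a median distance of 25 bp, coding exon summits 140.5 bp and intronic summits 318 bp. Relative to the start codon of the transcript with the nearest 5' end, 58 summits lay before it and 58 at or after it.

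**Figure D4:**
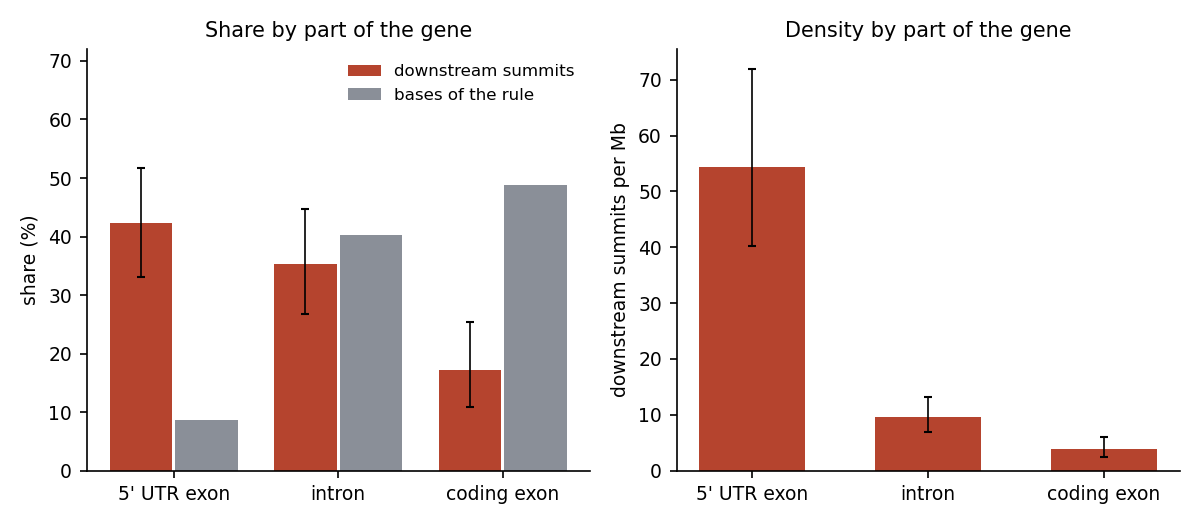
Left, share (%) of the 116 downstream summits (red) and of the eligible bases (grey) in 5' UTR exons, introns and coding exons; right, downstream summits per Mb of eligible bases in each; lines are exact 95% intervals. 5' UTR exons hold 42.2% of the summits and 8.57% of the bases, and coding exons 17.2% of the summits and 48.8% of the bases.

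In 5' UTR exons the strongest summits were sto-4, Y39B6A.43 and egl-30. In coding exons they were ZK112.4, Y18D10A.4 and gtf-2E2, the β subunit of the general transcription factor TFIIE. ZK112.4 had signal values of 226 and 172 in replicates 1 and 2, Y18D10A.4 had 178 and 179, and gtf-2E2 had 159 and 162. In all 3, the values came from peaks found in both replicates. In introns the strongest were tba-7, tsp-21 and the F54F2.6 summit at 416 bp, which lay in the intron of another gene. Of the 41 intronic summits, 35 lay in the first intron of the transcript with the nearest 5' end, 3 in the second and 2 farther on, and the F54F2.6 summit lay in no intron of that transcript. These first introns had a median length of 893 bp (232 to 7025 bp). The median over all first intron bases within 500 bp of a 5' end was 504 bp, weighted by those bases since a long intron offers more of them.

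Genes with alternative 5' ends were frequent among the 112. There were 66 with more than 1 annotated 5' end (58.9%), against 44.9% of 721 genes with an upstream summit and 26.3% of 19973 protein-coding genes. A gene with more 5' ends also has more windows, and its part in these shares was not tested. At 59 of the 116 summits a later 5' end of the same gene lay downstream, within 500 bp at 20. flh-1 had its next 5' end 303 bp beyond the summit, num-1 291 bp beyond and rpn-11 209 bp beyond. unc-62, a Meis-type homeodomain protein, had 15 annotated 5' ends, the most of any gene here.

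Most downstream summits had no other thresholded summit close by: 14 of 116 had one within 500 bp and 21 within 1000 bp. A thresholded summit within 1000 bp upstream of the same 5' end and of the same gene was present at 12 of 116. Outside this count, egl-30 (810), Y41D4A.4 (545), din-1 (544) and gpb-1 (513) had a thresholded summit upstream of another 5' end that was stronger than their downstream ones. That of Y41D4A.4 was a divergent summit. At sto-4 the downstream value was 774 and the upstream value 1059. At gldi-8 the values were 320.3 downstream and 265 upstream, at his-72 291 and 235, at drap-1 286 and 691, and at sptf-1 278 and 565. At unc-84, a SUN-domain protein of the nuclear envelope, they were 271 downstream and 393 upstream, at rgs-6 265.5 and 266.5, at T09B4.5 251 and 258, at F26F2.7 250.4 and 1022, and at Y54G11A.2 245 and 576. At sms-3 they were 238 downstream and 686 upstream, and at Y24D9A.7 219.6 and 252. In the pooled list the upstream summit was the stronger one at 10 of these 12, all but gldi-8 and his-72. At the downstream peaks of gldi-8 and rgs-6, both replicates' own summits were upstream under the same rule. At his-72 the same replicate 2 region (130.5) was nearest to the downstream and the upstream peak. At rgs-6 this was so for a replicate 1 region (189). The 2 peaks of these genes are thus not clearly separate. Of the 104 downstream summits without such a partner, 38 had an upstream region in the authors' unthresholded pooled list, with signal values up to 199, and 66 had none there.

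The pooled sptf-1 summit was a coding exon summit 88 bp downstream of the 5' end at chrI:10366709, with a GC box in its window. The signal values were 197 in replicate 1 and 117 in replicate 2. The own summit of replicate 1, at chrI:10366714, was downstream under the same rule. That of replicate 2, at chrI:10366576, was upstream. The strain carries extra sptf-1 sequence in its transgene, and the part of the transgene in this peak was not tested. No other gene of the Sp and KLF list, of 6, had a downstream summit.

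Downstream summits marked 112 of 19973 protein-coding genes (0.561%). Counts of genes in lists are set beside that share and carry no test. Of 28 gene lists, 18 had no gene with a downstream summit. For 7 of these lists, covering cytosolic and mitochondrial ribosomal proteins, translation factors, aminoacyl-tRNA synthetases, the respiratory chain, chaperones and splicing factors, the count was 0 of 369 genes, while 42 of the same genes had an upstream summit (all genes, 3.61%). At a share of 0.561%, few genes of 369 would carry one, and a count of 0 is near that background. None of 76 chromatin regulators and none of 86 vesicle traffic genes had a downstream summit, and 13 and 12 of them had an upstream one. Of 1364 chemoreceptor genes 1 was marked, srw-85.

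The 10 lists with a gene contributed 1 to 3 genes each. rpn-11, the deubiquitinase of the proteasome lid, was marked 7 bp downstream of a 5' end. Among histones, his-72, coding for the replacement histone H3.3, was marked at 209 bp in its first intron, and his-24, coding for a linker histone H1, at 12 bp. cdk-7, the kinase of the general factor TFIIH, was marked at 14 bp, and mig-1, a Frizzled receptor of Wnt ligands, at 23 bp. The list of homeobox genes gave unc-62 at 4 bp and hbl-1 at 214 bp, though hbl-1 codes for a Hunchback-like zinc-finger protein and has no homeodomain. The nuclear hormone receptor gene nhr-88 was marked at 256 bp, and the cuticle collagen genes dpy-17, col-47 and col-111 at 75, 479 and 375 bp. Of these, the collagens were among the weakest, at signal values of 239.8, 222 and 221, and none of the 3 was among the 2430 strongest regions of replicate 2. Nor were unc-62, hbl-1 and nhr-88, at signal values of 236, 222 and 226.

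A further 4 lists were drawn up after the downstream genes had been seen, so their counts support nothing and only order the names. Of 82 genes of RNA polymerase II initiation and elongation and of Integrator, the complex that cleaves snRNA transcripts, 5 were marked: ints-4, ints-8, gtf-2E2, cdk-7 and drap-1. All 5 summits lay within 88 bp of a 5' end. ints-4 had signal values of 221 and 246 in replicates 1 and 2, ints-8 had 167 and 176, cdk-7 had 186 and 113, and drap-1 had 167 and 97.7. Of 49 genes of heterotrimeric G protein signalling, 4 were marked, egl-30, gpb-1, dgk-2 (a diacylglycerol kinase) and rgs-6 (a regulator of G protein signalling). Of 14 genes of the heterochronic pathway, which times developmental stages, 3 were marked: alg-2, an Argonaute of microRNAs, at 376 bp, lin-28, the RNA-binding inhibitor of let-7 maturation, at 2 bp, and hbl-1. Of 14 hnRNP and FUBP-like RNA-binding protein genes, hrpa-1 (9 bp), fubl-1 (10 bp) and hrpu-1 (84 bp) were marked.

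The DNA under downstream summits was richer in G and C than the surrounding territory. In windows of 50 bases on either side of the summit the median GC content was 48.5% (quartiles 44.3 and 55.4%), against 36.6% for all bases eligible under the rule and 36.6% at 155 bp downstream of 15237 genes without a summit. Upstream summits had a median of 49.5%, with 33.7% for upstream bases. The gap was present in each part of the gene: 48.5% against 31.7% of bases in introns, 51.5% against 40.6% in coding exons and 48.5% against 36.6% in 5' UTR exons. Single summits ranged from 17.8% at num-1 to 71.3% at grl-25. The study's control values were not used here, and the part of GC-dependent recovery of fragments in these levels was not tested.

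**Figure D5:**
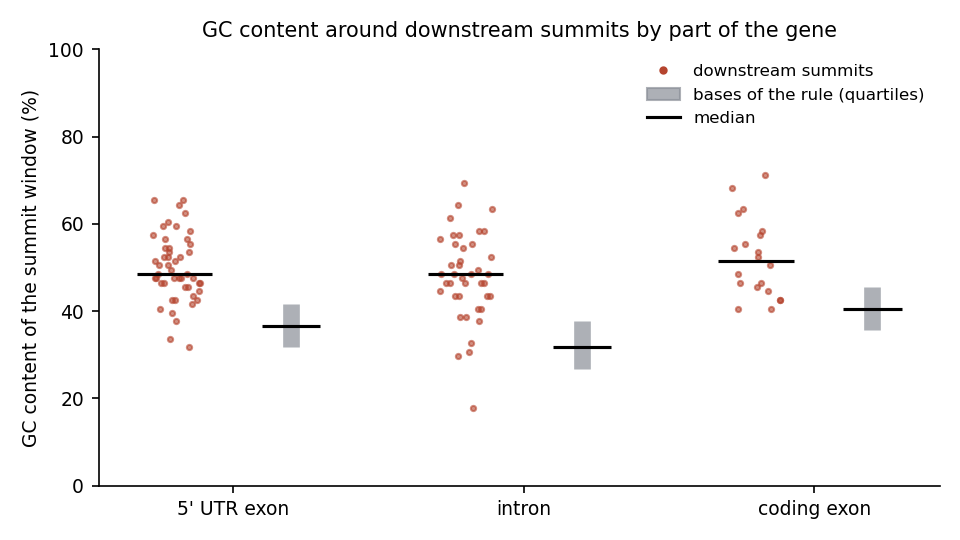
GC content (%) within 50 bases of downstream summits (red points) beside that of eligible bases (grey bars, quartiles) in 5' UTR exons, introns and coding exons; black lines are medians. The medians of the summits are 48.5, 48.5 and 51.5%, above 36.6, 31.7 and 40.6% for the bases.

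The GC box GGGCGG, on either strand, stood within 50 bases of 6 downstream summits (5.17%, 1.92 to 10.9%), against 1.38% of the eligible bases. It stood in 10.3% (8.20 to 12.6%) of upstream windows, where 1.97% of bases held it, and the intervals of the downstream and upstream shares overlapped. The 6 summits were those of Y18D10A.4, znf-593, F54F2.6 at 189 bp, sptf-1, Y15E3A.5 and F14F7.5, of which 3 lay in introns and 3 in coding exons. None of the 49 5' UTR exon summits held one, which allows a share of up to 7.25% by the exact interval, whereas 2.76% of such bases did. All 6 peaks overlapped a region among the 2430 strongest of both replicates, although at F54F2.6 and F14F7.5 the region with the nearest summit in replicate 2 ranked 8962 and 3190. The GC box holds only G and C, and summit windows were richer in both than the eligible bases. The part of base composition in these shares was not tested.

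The CACCC box stood in 26 downstream windows (22.4%, 15.2 to 31.1%), against 5.97% of eligible bases and 5.33% of the genes without a summit. In upstream windows the share was 15.7% (13.1 to 18.4%), and the intervals overlapped. It was spread over the parts of the gene, with 12 of 49 5' UTR exon, 9 of 41 intron and 4 of 20 coding exon windows. K09F5.4 held 2 copies and tsp-21 and ZK470.2 held 1 each, as printed above. rpn-11, cdk-7, his-24, alg-2, ints-8 and mab-20 also held one. CACCC is rich in C, and the part of base composition in its shares was likewise not tested.

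The 6-letter words with the largest gap between summits and bases included GA and CA repeats, words with CG and a G run. GAGAGA stood in 28 windows (24.1%, against 4.71% of sampled eligible bases), CGCGCA in 20 (17.2% against 1.15%), ACACAC in 21 (18.1% against 2.85%) and CCCCCC in 16 (13.8% against 0.546%). GAGAGA and CTCTCT overlap in the same repeats. In upstream windows GAGAGA stood at 24.5%, CGCGCA at 15.9%, ACACAC at 15.7% and CCCCCC at 7.24%. These words were picked for their size here, so the shares are a description. The part of base composition in them was not tested.

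TTTCAG and TATAAA stood in a smaller share of windows than of bases. TTTCAG, the core of the worm 3' splice site, stood in 7 windows (6.03%, against 21.7% of bases), and TATAAA in 4 (3.45% against 10.5%). GTAAG, the core of the 5' splice site, stood in 12 (10.3%, 5.46 to 17.4%), an interval that holds the 13.8% of bases. Upstream windows held TTTCAG at 4.74% and TATAAA at 2.89%. TTTCAG and TATAAA are rich in A and T, and the part of base composition in these shares was not tested. At CACGTG and TGACTCA, each in 1 window, the shares of 0.862% compare with 1.82 and 0.883% of bases.

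Repeats and low-complexity DNA, as soft-masked in the RefSeq genome, covered 50% or more of the window at 14 downstream summits (12.1%, 6.76 to 19.4%), against 20.4% of sampled eligible bases. Of these, 10 lay in introns (24.4%, against 40.3% of intron bases), 3 in 5' UTR exons, 1 in a 3' UTR exon and none in coding exons. num-1, znf-593, zipt-2.3 and Y82E9BL.18 were the strongest of the 10. The upstream summits, for comparison, had 10.8% of windows so masked.

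Downstream summits were found on all 6 nuclear chromosomes, with 28 on I, 13 on II, 24 on III, 16 on IV, 17 on V and 18 on X. As a share of the summits of each chromosome these were 6.02% on I, 3.41% on II, 5.83% on III, 4.88% on IV, 5.41% on V and 3.47% on X.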

How the data were processed

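The ce11 peak lists of 2 replicates and of both together were used as deposited. Per the deposited file listings, the caller also used a control file, and an irreproducible discovery rate analysis gave the thresholded list as its optimal set. The authors' signal value ranks the peaks, and the deposited −log10 q value, mostly at its maximum, was not used for ranking. Aligner, caller, cutoff and depth: not given in the sources used here. The 11 mitochondrial peaks were left out. Summits were classified against Ensembl release 115 (WBcel235), and sequence came from the RefSeq WBcel235 assembly. A replicate's region at a peak was the overlapping one (at least 1 base) with the nearest summit. Eligible bases were all bases that the rule would assign to the same class. The classification was tested on simulated data. Named genes followed a rule: the 25 strongest summits in both replicates, up to 3 per list, Sp and KLF genes, genes with an upstream summit, the edges, the strongest by part of the gene and the most unequal ranks. Genes named for a motif, for masking, for 2 summits, for a place past the transcript or from the 4 later lists fall outside it, picked with their values known. The members and lists were chosen with earlier results of these data known. Alternatives covered the 5' ends, distances, small RNA limit, peak strength, replicates and window width. Python 3.11.15, NumPy 2.4.6, pandas 2.3.3 and SciPy 1.17.1 were used.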

Additional observations from a re-analysis of the deposited data

How the results depend on the processing

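The 8 summary values of the downstream summits were recomputed under 76 combinations of result and setting, and 35 moved by no more than 1.5 times (counts) or the SD between the replicates' own lists (other values). With a downstream limit of 250 bp there were 71 summits, with a median distance of 66 bp, 63.4% in 5' UTR exons, 14.1% in introns, 19.7% in coding exons, a median GC content of 49.5% and a GC box in 4.23%. With a minimum distance of 50 bp the median distance was 256 bp, with 22.9% in 5' UTR exons, 49.4% in introns, 20.5% in coding exons and a GC box in 7.23%. When summits near small RNA genes were kept, 36.2% lay in 5' UTR exons, 44.9% in introns and 14.5% in coding exons, with 50.5% GC and a GC box in 4.35%. In the upper 50% of the list by signal there were 39 summits, 100% of them in both replicates, with 41.0% in introns, 12.8% in coding exons, 51.5% GC and a GC box in 7.69%. Among peaks found in both replicates there were 73 summits, with 38.4% in introns, 12.3% in coding exons, 50.5% GC and a GC box in 8.22%. With only the most upstream 5' end of each gene a GC box stood in 7.84%, and in windows of 25 and 100 bases on either side in 3.45 and 9.48%. With 1 replicate left out, the list of the other gave 113 to 137 summits, 51.1 to 60.2% shared, a median distance of 139 to 199 bp, 34.3 to 37.2% in 5' UTR exons, 34.5 to 38.7% in introns, 22.1 to 24.1% in coding exons, 48.5 to 49.5% GC and a GC box in 6.57 to 7.08%. Here "shared" means overlap with the strongest regions of the replicate left out. The main share asks pooled peaks to overlap the strongest regions of both replicates, so the 2 measures differ. The shares by part of the gene and the median distance changed with the limits of the rule, and also between the replicates' own lists. Causes of these changes were not tested. No paired analysis was possible because there was 1 group. The GC box share rests on few windows, and the read depth that limits all values is unknown.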
